A study of Mus musculus with 10 samples.

Results

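The genes described here encode the aminoacyl-tRNA synthetases of the mouse, taken from a table of RNA-seq read counts by their symbols (a letter followed by ars with or without the number 1, 2 or 3, and Eprs1, Farsa and Farsb). The rule found 38 of the 77175 entries of the table, 21 for cytosolic enzymes and 17 for mitochondrial enzymes. All 38 passed the filter on low counts, which left 15526 genes to be tested. The smallest count of a member in a library was 64 and the largest 13875.

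An aminoacyl-tRNA synthetase joins an amino acid to its transfer RNA, which then carries it to the ribosome. Most amino acids have a cytosolic enzyme and a separate mitochondrial enzyme, both encoded in the nucleus, and the enzymes fall into class I and class II by the fold of their catalytic domain. Several cytosolic enzymes sit together in the multi-synthetase complex, many cytosolic synthetase genes are known targets of the stress-response factor ATF4, and the tryptophan enzyme Wars1 is known as an interferon-inducible gene.

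Bulk RNA was sequenced from 2 mouse melanoma cell lines to ask whether they respond differently to interferon gamma (IFN-γ), a cytokine made by T and natural killer cells. The first is B16-F10, called WT here, and the second is B16-F10-OVA, called OVA, which carries the lentiviral construct pLV[Exp]-Neo-EF1A>{ovalbumin} for the model antigen ovalbumin under an EF1A promoter. Each line was untreated (2 libraries) or kept with IFN-γ at 50 ng/ml for 24 h (3 libraries), which makes 10 libraries with total counts from 17728722 to 19642533. The labels do not say whether OVA is a single clone or whether replicates were separate cultures, so p-values measure the spread between these libraries, which may be technical.

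Levels are CPM, the counts of a gene relative to the library total, scaled with TMM factors, and differences are log2 changes from edgeR's quasi-likelihood test with Benjamini-Hochberg adjustment over the 15526 genes. A gene is called when its adjusted p is under 0.05, and "rose", "fell", "higher" and "lower" of a tested gene mean called. The melanocyte markers of a list of 9 summed to between 30300 and 32800 CPM in every library. The T cell list of 8 summed to at most 4.07 CPM with Cd3e and Cd2 at 0 in all libraries, and the macrophage list of 7 to at most 5.04 CPM with Ptprc and Cd14 at 0. The fibroblast list of 6 summed to at most 7.67 CPM and the epithelial list of 6 to at most 1.57 CPM, with Epcam, Krt8, Krt5 and Krt14 at 0. The 6 interferon reference genes all rose in both lines, among them Gbp2 by 10.23 in WT and 9.81 in OVA, Tap1 by 8.36 and 7.25, and Irf1 by 6.04 and 5.99. In bulk RNA, fewer cells of a type and less RNA per cell cannot be told apart.

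The window from 250 bases before to 50 bases after the RefSeq gene start (GRCm38.p6) was found for 28 of the 38 genes, 14 cytosolic and 14 mitochondrial. No window was read for Cars1, Wars1, Lars1, Vars1, Rars1, Hars2, Nars1, Hars1 and Pars2, among others. Both strands were searched for 3 sets of letters. TGATGNAA, the composite site known for CHOP, C/EBP and ATF factors, was in 5 of the 14 cytosolic windows and 0 of the 14 mitochondrial ones, against 4.51% of the 27025 genes in the promoter table. TTCNNNGAA, the letters of the gamma-activated site known from IFN-γ target genes, was in 3 of the 28 windows, against 9.55% of all genes. These were the windows of Aars1, Kars1 and Nars2. GAAANNGAA, the core of the interferon-stimulated response element, was in that of Qars1 alone among the 28, against 9.76%. A match is a description of letters and no evidence of binding.

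The stretches below hold the matches of the 5 cytosolic genes with TGATGNAA and of Kars1, because they set members that rose beside Iars1, which was not called in either line. Each runs 5′ to 3′ on the gene's strand, capitals mark the matched letters (TTGCATCA and TTTCATCA are TGATGNAA read from the opposite strand), and position 1 is the gene start. The windows of Nars2, called in neither line, and of Qars1, which rose in both, are not printed. The Nars2 match of the gamma-activated letters lies at -147 to -139. The Kars1 match TTCCCGGAA lies at -9 to -1. Aars1 holds 2 composite matches, at -112 to -105 and 10 to 17, and between them the gamma-activated letters at -88 to -80. The composite match lies at -30 to -23 in Gars1, -15 to -8 in Tars1, 4 to 11 in Yars1 and 8 to 15 in Iars1.
Kars1, chr8:112011355-112011454, minus strand: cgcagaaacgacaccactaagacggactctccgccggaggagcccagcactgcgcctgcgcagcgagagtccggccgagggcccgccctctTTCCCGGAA
Gars1, chr6:55037901-55038000, plus strand: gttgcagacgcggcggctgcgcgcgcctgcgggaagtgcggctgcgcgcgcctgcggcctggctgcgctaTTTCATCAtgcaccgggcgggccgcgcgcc
Tars1, chr15:11399659-11399758, minus strand: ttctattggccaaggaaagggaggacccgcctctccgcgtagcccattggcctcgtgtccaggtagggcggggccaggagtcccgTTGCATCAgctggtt
Aars1, chr8:111033712-111033861, plus strand: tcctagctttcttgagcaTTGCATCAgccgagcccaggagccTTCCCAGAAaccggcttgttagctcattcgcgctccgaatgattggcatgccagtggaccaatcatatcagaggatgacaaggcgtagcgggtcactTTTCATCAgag
Yars1, chr4:129189833-129189932, plus strand: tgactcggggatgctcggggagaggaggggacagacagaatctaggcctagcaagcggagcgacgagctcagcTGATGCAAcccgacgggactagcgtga
Iars1, chr13:49682060-49682159, plus strand: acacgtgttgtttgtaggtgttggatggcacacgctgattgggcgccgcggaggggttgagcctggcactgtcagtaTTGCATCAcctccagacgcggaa

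Per length, the cytosolic genes were mostly the more abundant ones. The length joins all annotated exons of a gene over its transcripts, and was 3.12 kb for Gars1, 9.28 kb for Aars1 and 18.1 kb for Eprs1. Levels and ranks per length therefore depend on the annotation. In CPM, without length, these genes had means of 587, 537 and 519 in untreated WT. In untreated WT cells the cytosolic genes had a median level of 36.4 CPM per kb of exon (range 0.942 to 188), and the mitochondrial genes 3.70 CPM per kb (range 1.61 to 43.7). The most abundant member per length was Gars1, the glycine enzyme that serves both compartments from a single gene, at 188 CPM per kb. Nars1 (asparagine) followed at 71.9, Sars1 (serine) at 67.2 and Aars1 (alanine) at 57.8 CPM per kb. The lowest was Tars3, a further threonine enzyme of the cytosol, at 0.942 CPM per kb. Among mitochondrial genes Lars2 (leucine) had 43.7 CPM per kb, Iars2 (isoleucine) 15.2 and Rars2 (arginine) 11.2, and the other 14 lay between 1.61 and 7.94. With IFN-γ, Wars1 moved from rank 5 of the 38 at 54.4 CPM per kb to rank 2 at 176 CPM per kb in WT, and from rank 5 at 52.6 to rank 2 at 159.9 CPM per kb in OVA. Kars1 moved from rank 11 to rank 4 in WT and from rank 10 to rank 4 in OVA.

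**Figure D1:**
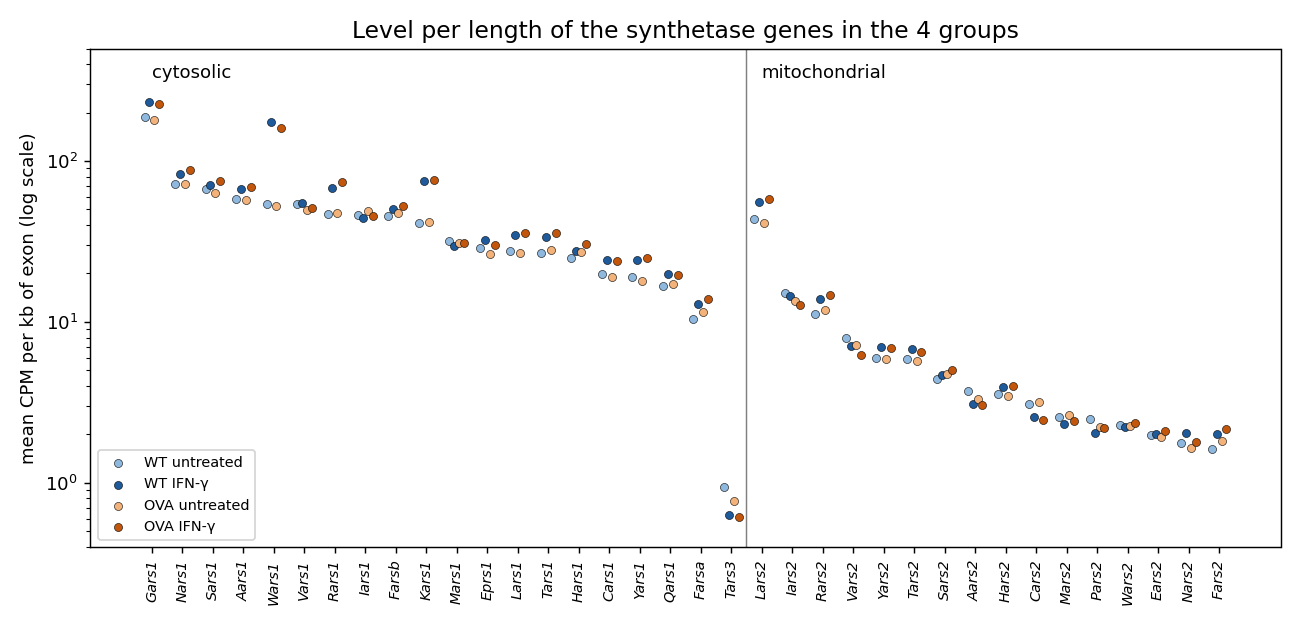
Mean level of the synthetase genes named in the text in CPM per kb of exon on a log scale, cytosolic genes on the left and mitochondrial genes on the right, each ordered by untreated WT, with a point for each of the 4 groups. Gars1 is highest at 188 CPM per kb in untreated WT and Tars3 lowest at 0.942, and Wars1 stands out among the treated groups at 176 and 159.9.

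IFN-γ raised most cytosolic synthetase genes in WT cells. Of 21 cytosolic genes 16 rose, 2 fell and 3 were not called, whereas 24.5% of all tested genes rose, 19.7% fell and 44.2% were called in either direction. The median log2 change of the 21 was 0.25, beside 0.011 over all tested genes, and it was 0.23 without Wars1. Of the 21, 10 rose by at least 1.2-fold and 1 fell by as much, beside 16.1% and 12.8% of all tested genes. In OVA cells 17 of the 21 rose, 0 fell and 4 were not called, beside 25.9% that rose, 22.9% that fell and 48.8% called among all tested genes. Beside this count of 0 falling genes in edgeR, 1 cytosolic gene, Iars1, had a negative change at an unadjusted p under 0.05, and by DESeq2 and limma-voom 0 fell as well. The median change in OVA was 0.26, beside 0.0018 over all tested genes, and 11 rose by at least 1.2-fold and 0 fell by as much, beside 18.0% and 15.4%. With upper-quartile scaling, which set the median of all tested genes to -0.06 in both lines, 14 rose and 3 fell in WT and 15 rose and 1 fell in OVA.

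**Figure D2:**
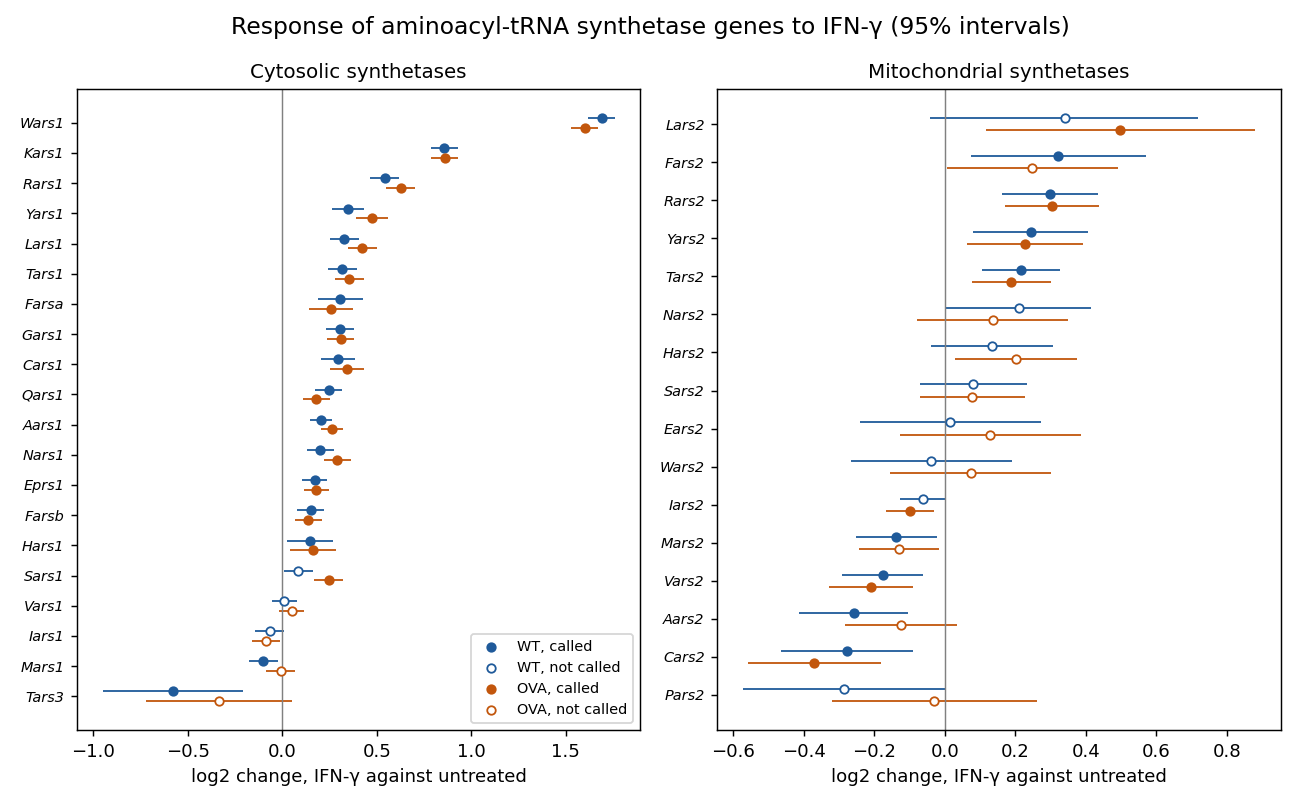
Log2 change of the synthetase genes named in the text with IFN-γ in WT (blue) and OVA (orange), cytosolic genes on the left and mitochondrial genes on the right, with 95% intervals and filled points for called genes; the horizontal scales of the panels differ. Wars1 leads at 1.69 and 1.60, and the mitochondrial genes lie on both sides of 0.

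Wars1 (ENSMUSG00000021266), the tryptophan enzyme of class I, had the largest increase of the 38 in both lines. Its level was 186 and 189 CPM in untreated WT and 616, 614 and 588 CPM with IFN-γ. In OVA it was 179 and 183 CPM untreated and 552, 541 and 561 CPM treated. All treated libraries lay far above all untreated ones, and the treated OVA libraries lay below the treated WT libraries. The log2 change was 1.69 in WT (SE 0.0326, edgeR adjusted p = 2.44e-17) and 1.60 in OVA (SE 0.0327, edgeR adjusted p = 5.21e-17). Among the 15526 tested genes ordered from the largest increase down, Wars1 was at place 545 in WT and 577 in OVA. Its transcripts shared no run of 31 bases with another gene in GENCODE M21.

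Kars1 (ENSMUSG00000031948), the lysine enzyme of class II, which serves cytosol and mitochondria from a single gene and belongs to the multi-synthetase complex, had the next largest increase. It was at 186 and 182 CPM in untreated WT and at 335, 332 and 333 CPM with IFN-γ. In OVA it was at 187 CPM in both untreated libraries and at 328, 338 and 352 CPM in the treated ones. The groups did not overlap in either line, and treated libraries of the lines did. The log2 change was 0.86 in WT (SE 0.0335, edgeR adjusted p = 8.65e-13) and 0.86 in OVA (SE 0.0334, edgeR adjusted p = 8.00e-13), which is 1.81-fold and 1.82-fold.

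Rars1 (ENSMUSG00000018848), the arginine enzyme and also a member of the complex, was the third in both lines. It went from 150.4 and 152 CPM to 218, 221 and 221 CPM in WT. In OVA it went from 149 and 158 CPM to 233, 234 and 247 CPM. The groups did not overlap in either line, and the treated OVA libraries lay above the treated WT libraries. The log2 change was 0.54 in WT (SE 0.0358, edgeR adjusted p = 1.46e-09) and 0.63 in OVA (SE 0.0357, edgeR adjusted p = 1.74e-10).

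**Figure D3:**
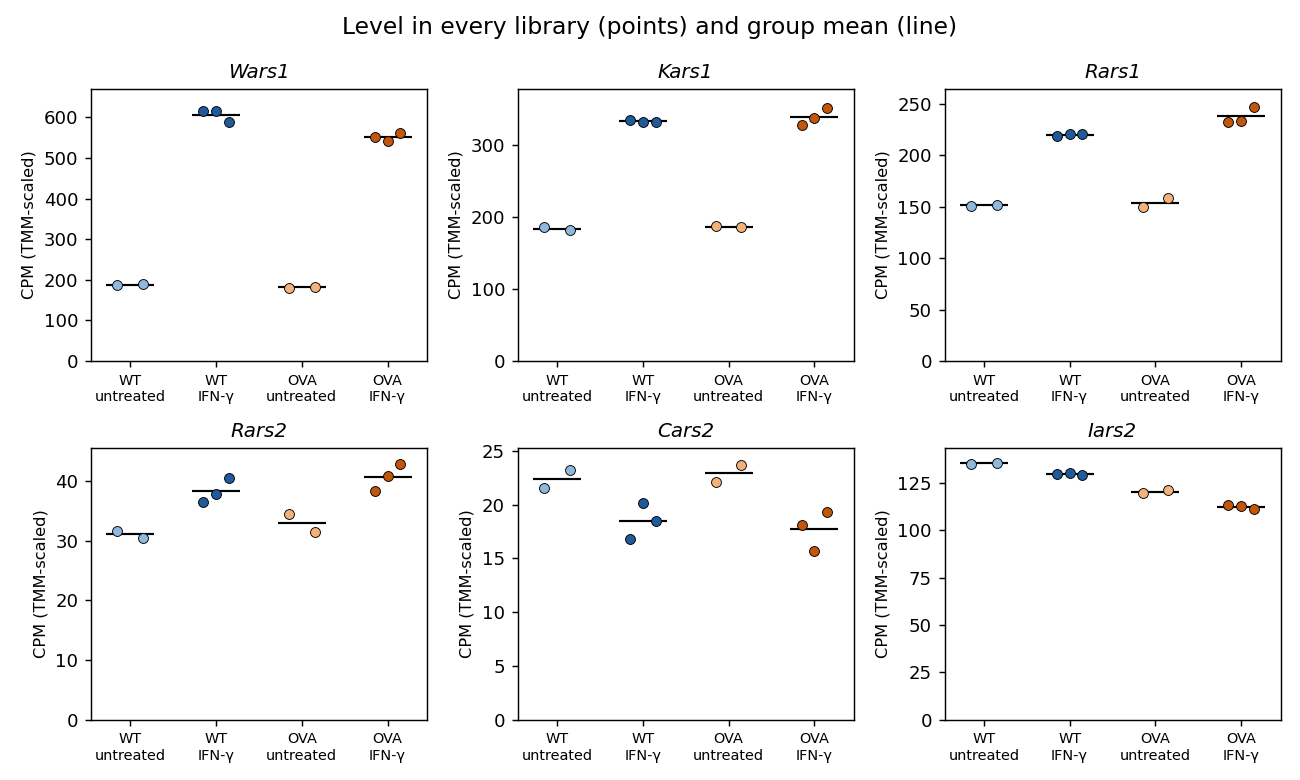
Level in CPM of 6 synthetase genes in each library (points) with the group mean (line), for WT and OVA untreated (2 libraries each) and with IFN-γ (3 libraries each), on axes that start at 0. Treated libraries lie above untreated ones for Wars1, Kars1, Rars1 and Rars2 and below them for Cars2, and the OVA libraries lie below the WT libraries for Iars2.

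The other cytosolic genes that rose in both lines did so by less than 0.50 on the log2 scale. Yars1 (tyrosine) rose by 0.35 in WT and 0.48 in OVA, from 113 ± 1.44 CPM (SD, n = 2) to 144 ± 1.22 (n = 3) and from 107 ± 6.31 to 149 ± 4.60. Lars1 (leucine) rose by 0.33 and 0.42, Tars1 (threonine) by 0.32 and 0.35, and Cars1 (cysteine) by 0.30 and 0.34. Gars1, the most abundant member per length, went from 575 and 600.2 CPM to 751, 714 and 714 CPM in WT and from 572 and 558 CPM to 698, 680.4 and 722 CPM in OVA, a rise of 0.31 in each line. The 2 subunits of the cytosolic phenylalanine enzyme both rose, the catalytic subunit Farsa by 0.31 and 0.26 and the partner subunit Farsb by 0.15 and 0.14. The difference between these subunits was not tested. Smaller increases were called for Qars1 (glutamine, 0.25 and 0.18), Aars1 (0.21 and 0.26), Nars1 (0.20 and 0.29), Eprs1 (the fused glutamate and proline enzyme, 0.17 and 0.18) and Hars1 (histidine, 0.15 and 0.16). Of the 31-base runs of Aars1 transcripts 14.41% occur in other genes, and of those of Farsb 8.46%. Among mitochondrial genes with a call, the share was 23.59% for Iars2, 9.83% for Fars2, 8.53% for Cars2 and 7.28% for Vars2. The Hars1 call in WT (edgeR adjusted p = 0.0496) was lost with DESeq2, upper-quartile scaling, the stricter filter and when any of 8 of the 10 libraries was left out, and that in OVA with DESeq2 (adjusted p = 0.0578), upper-quartile scaling (edgeR adjusted p = 0.136) and without OVA untreated 1 or 2 or OVA IFN-γ 3. The Farsb calls were lost with upper-quartile scaling in both lines, and in OVA without OVA untreated 1 (0.10, edgeR adjusted p = 0.0819).

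The cytosolic genes outside this pattern were few. Sars1 was not called in WT (0.09, 95% interval 0.011 to 0.16, edgeR adjusted p = 0.0596) and rose by 0.25 in OVA. Vars1 (valine) changed by 0.01 (interval -0.05 to 0.08) in WT and 0.05 (-0.01 to 0.12) in OVA and was called in neither. Iars1 changed by -0.07 (-0.14 to 0.0095) and -0.09 (-0.16 to -0.0095) and was called in neither, although several settings called it lower; 14.74% of the 31-base runs of its transcripts occur in other genes. Mars1 (methionine) was at 109.9 and 109 CPM in untreated WT and 105, 102 and 99.0 CPM treated, groups that did not overlap, and fell by 0.10 (SE 0.0369, edgeR adjusted p = 0.0383). In OVA it was at 104 and 109 CPM untreated and 106, 105 and 106 CPM treated, and the change of -0.01 was not called. The Mars1 call in WT was lost with DESeq2, without a filter and without WT untreated 1, WT untreated 2, WT IFN-γ 2 or WT IFN-γ 3.

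Tars3 was the least abundant cytosolic member and the one with the largest decrease. It was at 5.36 and 7.34 CPM in untreated WT and 4.33, 4.02 and 4.40 CPM treated. In OVA it was at 6.19 and 4.27 CPM untreated and 3.58, 4.67 and 4.18 CPM treated, groups that overlapped. It fell by 0.58 in WT (SE 0.176, edgeR adjusted p = 0.0132), and the change of -0.33 in OVA (interval -0.72 to 0.05) was not called. Without WT untreated 2, its highest library, the change in WT was -0.33 (edgeR adjusted p = 0.256), and without OVA untreated 2 the change in OVA was -0.58 (edgeR adjusted p = 0.0322).

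Mitochondrial synthetase genes changed in both directions. In WT 4 of 17 rose, 4 fell and 9 were not called, with a median log2 change of 0.016. In OVA it was again 4, 4 and 9, with a median of 0.08. These counts are close to the shares of all tested genes, of which 24.5% rose and 19.7% fell in WT and 25.9% rose and 22.9% fell in OVA. With upper-quartile scaling 2 rose and 7 fell in WT and 2 rose and 5 fell in OVA, and with DESeq2 2 rose and 1 fell in WT and 2 rose and 3 fell in OVA. Without WT untreated 1 the count called in WT was 3, and without OVA untreated 1 that in OVA was 4.

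Rars2, the arginine enzyme of mitochondria, rose in both lines. It was at 31.7 and 30.5 CPM in untreated WT and 36.4, 37.8 and 40.6 CPM treated, and at 34.5 and 31.5 CPM in untreated OVA and 38.4, 40.8 and 42.8 CPM treated. The groups did not overlap in either line, and its log2 change was 0.30 in WT (SE 0.0642, edgeR adjusted p = 0.00107) and 0.30 in OVA (SE 0.0632, edgeR adjusted p = 7.34e-04). It is the mitochondrial counterpart of Rars1, which had the third largest increase among the cytosolic genes. Its call held in every alternative in both lines.

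Yars2 (tyrosine) went from 18.1 and 19.2 CPM to 21.7, 23.5 and 21.2 CPM in WT and from 17.8 and 19.3 CPM to 21.0, 23.6 and 20.6 CPM in OVA. Neither pair of groups overlapped, and it rose by 0.24 (SE 0.077, edgeR adjusted p = 0.0164) and 0.23 (SE 0.0775, edgeR adjusted p = 0.0227). Tars2 (threonine) rose by 0.22 and 0.19. Fars2 (phenylalanine) was at 9.50 and 9.02 CPM untreated and 11.6, 10.7 and 12.5 CPM treated in WT, and at 10.6 and 10.2 CPM untreated and 13.7, 13.1 and 10.3 CPM treated in OVA. Its groups overlapped in OVA only through OVA IFN-γ 3, and the change was 0.32 in WT (SE 0.117, edgeR adjusted p = 0.034) and 0.25, not called, in OVA (SE 0.114, edgeR adjusted p = 0.0826). Leaving out OVA IFN-γ 3 gave 0.36 (edgeR adjusted p = 0.00931) in OVA, while the WT calls of Fars2, Yars2 and Tars2 were each lost without one or more single libraries, among them WT untreated 1 for Fars2 and Yars2 and WT untreated 2 for Fars2 and Tars2. In OVA the calls of Yars2 and Tars2 were lost without OVA untreated 1, and that of Yars2 also without OVA IFN-γ 2. With DESeq2 the calls of Yars2 in WT (adjusted p = 0.0896) and OVA (0.103) and of Fars2 in WT (0.108) were lost, as they were with upper-quartile scaling in edgeR (0.084, 0.0892 and 0.0944).

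Cars2 (cysteine) had the largest decrease among the called mitochondrial genes in both lines. It was at 21.6 and 23.2 CPM in untreated WT and 16.8, 20.1 and 18.5 CPM treated, and at 22.1 and 23.7 CPM in untreated OVA and 18.1, 15.7 and 19.4 CPM treated. The groups did not overlap, and it fell by 0.28 in WT (SE 0.0887, edgeR adjusted p = 0.018) and by 0.37 in OVA (SE 0.0892, edgeR adjusted p = 0.00244). Vars2 (valine) also fell in both lines, from 43.8 and 43.0 CPM to 39.8, 37.6 and 37.7 CPM in WT (-0.18, SE 0.0541, edgeR adjusted p = 0.0142). In OVA it went from 41.4 and 36.7 CPM to 33.7, 33.7 and 33.9 CPM (-0.21, SE 0.0563, edgeR adjusted p = 0.00539). In WT the Cars2 call was lost without WT untreated 2 or WT IFN-γ 1 and the Vars2 call with DESeq2 (adjusted p = 0.0539) and without WT untreated 1 or 2, and in OVA the Vars2 call was lost without OVA untreated 1.

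Aars2 (alanine) was at 17.7 and 17.6 CPM in untreated WT and 14.8, 14.9 and 14.5 CPM treated, and at 15.3 and 16.1 CPM in untreated OVA and 14.7, 15.0 and 13.5 CPM treated. The groups did not overlap in either line. It fell by 0.26 in WT (SE 0.0728, edgeR adjusted p = 0.00826), a call lost with DESeq2 (-0.27, adjusted p = 0.0638) and without WT untreated 1, and changed by -0.12 in OVA (interval -0.28 to 0.03), not called. The difference between the lines was not called, at 0.13 (interval -0.09 to 0.35).

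Smaller decreases were called in a single line for Mars2 (methionine, -0.14 in WT) and Iars2 (-0.10 in OVA). At the threshold of 0.05 the Mars2 call was lost in 12 alternatives, among them DESeq2, limma-voom and each of 6 single libraries left out, and the Iars2 call was lost with DESeq2, without a filter and without OVA untreated 2. The mitochondrial genes called in neither line were Nars2 (asparagine, 0.21 and 0.14), Hars2 (histidine, 0.13 and 0.20), Sars2 (serine, 0.08 and 0.08), Ears2 (glutamate, 0.016 and 0.13), Wars2 (tryptophan, -0.04 and 0.07) and Pars2 (proline, -0.28 and -0.03). Their standard errors ran from 0.0701 for Sars2 to 0.137 for Pars2, so changes of the size seen in the cytosolic genes could be missed for several of them.

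Lars2, the leucine enzyme of mitochondria, differed most between libraries of one group. It was at 355 and 615 CPM in untreated WT and 612, 672 and 558 CPM treated. In OVA it was at 359 and 549.7 CPM untreated and 735, 560.2 and 628 CPM treated. In each line 1 untreated library, the one numbered 1, lay far below all the others, and in WT the groups overlapped. The change was 0.34 in WT (SE 0.18, interval -0.04 to 0.72, edgeR adjusted p = 0.14) and 0.50 in OVA (SE 0.181, edgeR adjusted p = 0.031), where it was called. Without WT untreated 2 the change in WT was 0.79, and the lowest change in WT over all alternatives was -0.012. WT untreated 2, at 615 CPM, lay among the treated WT libraries (558 to 672 CPM). Without OVA untreated 1 the change in OVA was 0.21 (edgeR adjusted p = 0.443), without OVA IFN-γ 1 it was 0.38 (edgeR adjusted p = 0.125), and without OVA IFN-γ 3 it was 0.50 (edgeR adjusted p = 0.0507). The call in OVA was also lost with DESeq2 (0.49, adjusted p = 0.168) and with upper-quartile scaling (0.44, edgeR adjusted p = 0.0591).

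The entry Rn18s-rs5, an 18S ribosomal RNA sequence that poly-A selection is meant to remove, had a like pattern over the libraries. It was at 1449 and 4030 CPM in untreated WT and 4120, 4186 and 3357 CPM treated, and at 1896 and 3306 CPM in untreated OVA and 4560, 3454 and 3979 CPM treated. The same 2 untreated libraries were lowest, and OVA IFN-γ 1 was highest for both genes. The mitochondrial ribosomal entry mt-Rnr2 was at 879 and 1193 CPM in untreated WT and 1111 and 1404 CPM in untreated OVA, and between 927 and 1281 CPM in the treated libraries. The entry mt-Rnr1 was at 254 and 350.5 CPM in untreated WT and 310 and 369 CPM in untreated OVA. Its treated libraries lay between 323 and 413 CPM, so the untreated libraries numbered 1 were lowest for mt-Rnr1 too. WT IFN-γ 1 was highest for mt-Rnr1. Transcripts of Lars2 in GENCODE M21 shared 0.92% of their 31-base runs with other genes. That search covered the transcripts of this annotation alone, and the part of ribosomal RNA in the Lars2 values was not tested.

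**Figure D4:**
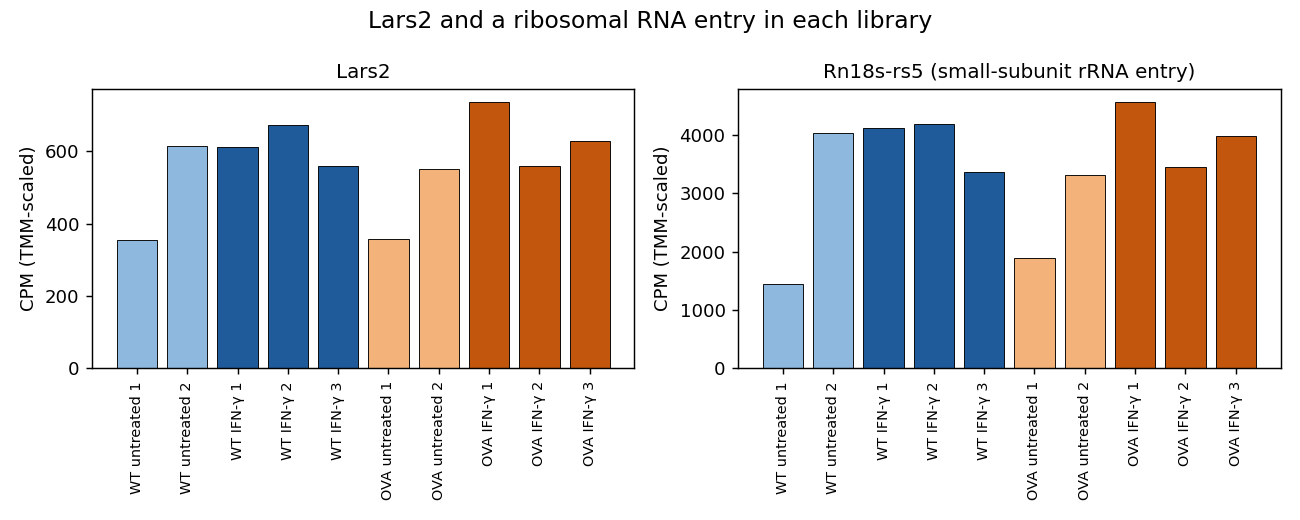
Level in CPM of Lars2 (left) and of the 18S ribosomal RNA entry Rn18s-rs5 (right) in each of the 10 libraries, on axes that start at 0. Untreated WT 1 (355 and 1449 CPM) and untreated OVA 1 (359 and 1896 CPM) are lowest in both panels and OVA IFN-γ 1 (735 and 4560 CPM) is highest.

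Summed over the enzymes, the cytosolic level was higher with IFN-γ, and the mitochondrial one without Lars2 differed by less than 1 SD. The 21 cytosolic genes together made up 4534 and 4539 CPM in untreated WT and 5688 to 5800.2 CPM treated, and 4415 and 4443 CPM in untreated OVA and 5616 to 5858 CPM treated. Without Wars1 the sums were 4349 ± 2.05 CPM (SD, n = 2) and 5126 ± 49.9 (n = 3) in WT and 4247 ± 17.1 and 5163 ± 119.9 in OVA, so the treated libraries stayed above the untreated ones without it. The 16 mitochondrial genes other than Lars2 summed to 455 ± 1.95 CPM untreated and 455 ± 1.34 CPM treated in WT, and to 437 ± 3.83 and 433 ± 3.63 CPM in OVA. With Lars2 the mitochondrial sums were 940 ± 182 CPM untreated and 1069 ± 55.4 CPM treated in WT. In OVA they were 891 ± 139 and 1075 ± 84.7 CPM. Lars2 alone had means of 485 CPM in untreated WT and 454 CPM in untreated OVA. No test was made of these sums.

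For 18 pairs of a cytosolic and a mitochondrial gene of the same amino acid, the cytosolic gene had the higher log2 change in 13 pairs in WT, 15 in OVA and 12 in both lines. Eprs1 and Fars2 each enter 2 of these pairs, and Gars1, Kars1, Qars1 and Tars3 enter none. The widest gap was that of tryptophan, with 1.69 for Wars1 and -0.04 for Wars2 in WT and 1.60 and 0.07 in OVA. Cysteine followed, with 0.30 for Cars1 and -0.28 for Cars2 in WT and 0.34 and -0.37 in OVA, a pair called in opposite directions in each line. Alanine was called in opposite directions in WT (0.21 for Aars1, -0.26 for Aars2). For isoleucine, histidine, leucine and the pair of Farsa and Fars2 the changes lay within 0.08 of each other in both lines. The leucine pair rests on Lars2, whose SE was 0.18 in each line. Its change in OVA was 0.21 without OVA untreated 1. The pairs are given as a description without a test.

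**Figure D5:**
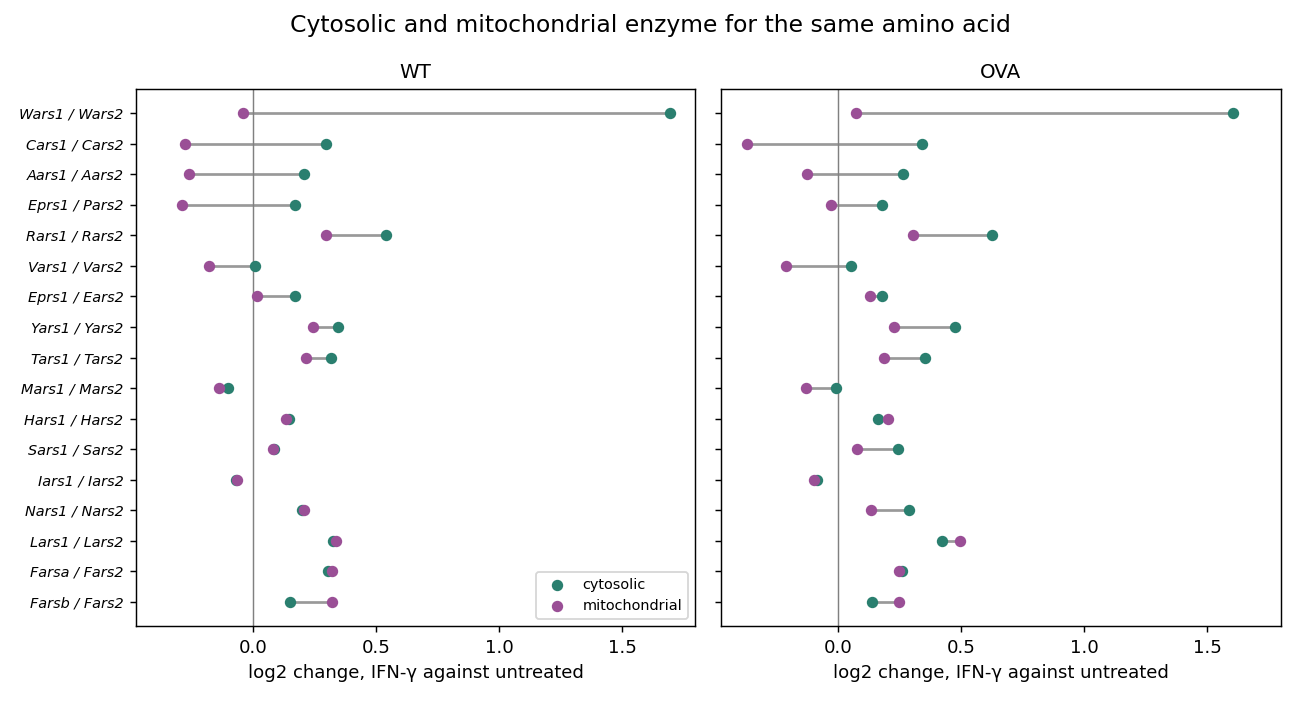
Log2 change with IFN-γ of the cytosolic (green) and the mitochondrial (purple) gene for the same amino acid, for the genes named in the text, in WT (left) and OVA (right), ordered by the gap in WT. The tryptophan pair is widest at 1.69 against -0.04 in WT, and in the cysteine pair the genes lie on opposite sides of 0 in both lines.

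Members that rose were found in both classes of fold and both inside and outside the multi-synthetase complex. The counts below stand beside 24.5% of all tested genes that rose and 19.7% that fell in WT, and 25.9% and 22.9% in OVA. Of 18 class I genes 8 rose and 4 fell in WT and 9 rose and 3 fell in OVA, with medians of 0.13 and 0.155. Of 19 class II genes 11 rose and 2 fell in WT and 11 rose and 1 fell in OVA, with a median of 0.20 in each (Eprs1, which holds an enzyme of each class, is in neither list). Of the 8 enzymes of the complex 6 rose and 1 fell in WT and 6 rose and 0 fell in OVA, with medians of 0.26 and 0.24, and of the 13 cytosolic genes outside it 10 rose and 1 fell in WT and 11 rose and 0 fell in OVA, with medians of 0.21 and 0.26. All 3 scaffold proteins of the complex rose in both lines. Aimp1 rose by 0.42 and 0.46, Aimp2 by 0.35 and 0.18 and Eef1e1 by 0.21 and 0.39.

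Cytosolic synthetase genes rose both inside and outside the list of ATF4-linked members. Of the 13 cytosolic synthetase genes listed as ATF4-linked 9 rose and 1 fell in WT and 10 rose and 0 fell in OVA, and of the 8 others 7 rose and 1 fell in WT and 7 rose and 0 fell in OVA. The difference between these lists was not tested. Over 20 further ATF4 target genes the count was divided, with 7 higher and 9 lower in WT (median -0.09) and 7 higher and 6 lower in OVA (median 0.0082), beside 24.5% higher and 19.7% lower of all tested genes in WT and 25.9% and 22.9% in OVA. Among them Nupr1, a stress-induced chromatin protein, rose by 1.10 in WT and 1.71 in OVA. The transcription factor Atf5 rose by 0.76 and 0.91, Aldh1l2, a folate enzyme of mitochondria, by 0.54 and 0.74, and Ddit3, which encodes CHOP, by 0.24 and 0.81. Of those that fell, Ddit4, a stress-induced inhibitor of mTOR signalling, had the largest decrease, by 0.61 and 0.45, and the amino acid transporter gene Slc7a1 fell by 0.37 and 0.43 and Sesn2, a leucine sensor, by 0.30 and 0.32. Atf4 itself, named because the list bears its name, fell by 0.15 and 0.13. Of the 20 genes 3 were called for a response that differed between the lines, all with the higher log2 change in OVA, beside 0.0773% of all tested genes. The difference was 0.57 for Ddit3 (SE 0.064, edgeR adjusted p = 3.72e-04). It was 0.40 for Chac1 (SE 0.0708, edgeR adjusted p = 0.0184), a glutathione-degrading enzyme that fell by 0.38 in WT and changed by 0.02, not called, in OVA. It was 0.38 for Trib3 (SE 0.0689, edgeR adjusted p = 0.0218), a pseudokinase that rose by 0.25 and 0.63. Between the untreated lines 8 of the 20 were lower in OVA and 1 higher, beside 2.55% and 2.98% of all tested genes. Trib3 had means of 64.4 CPM in untreated WT and 48.7 in untreated OVA, and 76.7 and 75.4 CPM treated. Ddit3 had 75.4 and 60.3 CPM untreated and 88.8 and 105.4 CPM treated. Chac1 had 51.8 and 49.4 CPM untreated and 39.9 and 50.15 CPM treated. Ddit4, Slc7a1, Sesn2, Chac1 and Trib3 were named after their values were seen.

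Genes of neighbouring steps of translation changed in both directions. Of 10 genes for proofreading and for tRNA-dependent routes 3 rose and 1 fell in WT and 4 rose and 1 fell in OVA, beside 24.5% that rose and 19.7% that fell of all tested genes in WT and 25.9% and 22.9% in OVA. Dtd1, which removes D-amino acids from tRNA, rose by 0.41 and 0.60. Prorsd1, which removes a wrong amino acid from the tRNA for proline, rose by 0.41 and 0.56. Gatb, a subunit of the mitochondrial glutaminyl-tRNA amidotransferase, rose by 0.21 and 0.24. Its catalytic subunit Qrsl1 fell by 0.22 and 0.21. Of 5 cytosolic elongation factors Eef1b2 rose by 0.14 and 0.16, Eef1d fell by 0.12 in each line and the other 3 were not called. Of 8 mitochondrial translation factors Mtif3 rose by 0.35 and 0.32, Gfm1 fell by 0.19 and 0.23, Tufm fell by 0.17 and 0.13, and Mtrf1l changed by 0.19 (not called) in WT and rose by 0.51 in OVA.

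Tryptophan is the substrate of Wars1 and of the kynurenine pathway. Of 13 genes for its uptake and breakdown 7 were abundant enough to be tested, of which 1 rose and 4 fell in WT and 1 rose and 3 fell in OVA, beside 24.5% and 19.7% of all tested genes in WT and 25.9% and 22.9% in OVA. Ido1, an IFN-γ target in many cell types that starts tryptophan breakdown, had 0 counts in all 10 libraries. Slc7a5, the light chain of a large neutral amino acid transporter, fell by 0.45 and 0.39, and its partner Slc3a2 rose by 0.09 and 0.27. Slc36a4, another tryptophan transporter, fell by 0.53 and 0.55, and Afmid, the formamidase of the kynurenine pathway, fell by 0.42 and 0.53.

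The responses of the lines were compared by the difference of their log2 changes, OVA minus WT. None of the 38 members was called in edgeR, and 2 had an unadjusted p under 0.05. DESeq2 and limma-voom called 0 too. Of all tested genes 0.341% were called, 0.0773% higher and 0.264% lower in OVA. The lowest adjusted p was that of Sars1, at 0.16 (SE 0.0499, 95% interval 0.05 to 0.27, edgeR adjusted p = 0.231), and Yars1 followed at 0.13 (interval 0.0097 to 0.25). For Wars1 the difference was -0.09 (interval -0.185 to 0.0043, edgeR adjusted p = 0.49), for Kars1 0.0020 (-0.10 to 0.10) and for Rars1 0.09 (-0.02 to 0.19). Intervals were widest for Tars3 (-0.29 to 0.78) and Lars2 (-0.38 to 0.69), which leaves differences of that size undetermined.

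Of the 38 members 21 were called in both lines, each in the same direction in both, 5 in WT alone, 4 in OVA alone and 8 in neither. Of all tested genes 36.8% were called in both lines in the same direction, 7.31% in WT alone and 12.0% in OVA alone, and both responses come from a single fit. The sign of the change was the same in both lines for 37 of the 38, the exception being Wars2, and for 82.8% of all tested genes. The groups of treated and untreated libraries did not overlap for 33 members in WT and 30 in OVA, beside 62.0% and 65.6% of all tested genes. Members called in a single line are not shown to differ between the lines, since none was called for the difference.

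Between the untreated lines 2 members were called lower in OVA and 0 higher, beside 5.53% of all tested genes called, 2.98% higher and 2.55% lower. Vars1 was at 304 CPM in both WT libraries and at 279 and 276 CPM in OVA, lower by a log2 difference of -0.13 (SE 0.0341, edgeR adjusted p = 0.0374). Iars2 was at 135 and 136 CPM in WT and at 119 and 121 CPM in OVA, lower by -0.17 (SE 0.0346, edgeR adjusted p = 0.00787). The libraries of the lines did not overlap for either gene, as for 49.7% of all tested genes. The Vars1 call was lost without a filter (edgeR adjusted p = 0.0629). Both calls were lost when any of the 4 untreated libraries was left out, with changes between -0.13 and -0.12 for Vars1 and between -0.18 and -0.15 for Iars2. The largest positive difference was that of Fars2, 0.17 (interval -0.11 to 0.44), not called.

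Between the treated lines 4 cytosolic and 2 mitochondrial members were called, beside 14.4% of all tested genes, 6.36% higher and 7.99% lower. Wars1 was lower in OVA by -0.14 (SE 0.0266, edgeR adjusted p = 0.00218), with 588 to 616 CPM in WT and 541 to 561 CPM in OVA, and the untreated libraries differed by -0.05 (interval -0.12 to 0.03). Iars2 was lower by -0.20 (SE 0.0285, edgeR adjusted p = 1.25e-04), at 129.6, 130.1 and 129 CPM in WT and 113, 113 and 111 CPM in OVA. The calls of Wars1 and Iars2 between the treated lines held under every other tool, scaling and filter tried, without each single library and at an adjusted p under 0.01. Iars2 transcripts share 23.59% of their 31-base runs with other genes, and how shared reads were assigned is not known here.

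Eprs1 was at 603, 585 and 565 CPM in treated WT and at 534, 544 and 554 CPM in treated OVA, lower by -0.10 (SE 0.0278, edgeR adjusted p = 0.0204). Rars1 was higher in OVA by 0.11 (SE 0.0306, edgeR adjusted p = 0.0216), with 233 to 247 CPM beside 218 to 221 CPM in WT. Vars2 was lower by -0.19 (SE 0.0504, edgeR adjusted p = 0.0206), at 33.7 to 33.9 CPM beside 37.6 to 39.8 CPM. Vars1, at 308, 305 and 304 CPM in WT and 298, 288 and 278 CPM in OVA, was lower by -0.09 (SE 0.0278, edgeR adjusted p = 0.0473). None of these 4 pairs of groups overlapped, as for 31.1% of all tested genes. The Vars2 call was lost with DESeq2 (adjusted p = 0.0781), and that of Vars1 with DESeq2, upper-quartile scaling, no filter and a fit of the compared groups alone (adjusted p from 0.0534 to 0.133). Each call was lost without one or more single libraries: that of Rars1 without WT IFN-γ 1 or 2 or OVA IFN-γ 3, that of Eprs1 without WT IFN-γ 1 or 2 or OVA IFN-γ 1 or 2, that of Vars2 without WT IFN-γ 1 or any treated OVA library, and that of Vars1 without any of 9 libraries.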

How the data were processed

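RNA of 10 libraries was measured by poly-A selected RNA-seq (1 table, 77175 entries, 21805 without a symbol). The deposited values are raw read counts per Ensembl gene, which the authors made with HISAT2 2.0.5 and featureCounts 1.6.0 on GRCm39, per the submitters' processing notes. Annotation, strand setting and multi-mapping rule: not given in the sources used here. Overlapping or near-identical genes are therefore uncertain. The labels' extraction protocol speaks of tissue while all other labels name cell lines. Groups and replicate numbers came from the labels.

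All 10 libraries and 4 group means were fitted with edgeR 4.0.16 in R 4.3.3 (TMM factors, filterByExpr on group, quasi-likelihood F test, two-sided, Benjamini-Hochberg over 15526 genes, threshold 0.05) for 5 comparisons, namely the IFN-γ response of WT, that of OVA, their difference, and the lines against each other without and with IFN-γ. Standard errors were taken from the log2 change and its F statistic, and intervals cover 95%. CPM carry the TMM factors. CPM per kb divide by the joined length of all exons of a gene over its transcripts in GENCODE M21 (GRCm38). The transcripts of GENCODE M21 were also searched for shared runs of 31 bases. Promoter windows are RefSeq's, from GRCm38.p6. Protein sequences were not used here. The scripts were tested on simulated data.

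The members and gene lists were chosen with earlier results of these data known. Some genes are not reported here by name but stay in the counts. All other members were named. Values by library and full statistics were given for Wars1 and, in each comparison, for up to 3 called genes of each compartment with the largest increase and as many with the largest decrease, and of other lists up to 4 called genes. Alternatives were DESeq2 1.42.0, limma-voom (limma 3.58.1), upper-quartile factors, no filter, a stricter filter (1 CPM in 5 or more samples), a fit of the compared groups alone, a replicate block, a change of 1.2-fold or more, an adjusted p under 0.01, each library left out and, added after seeing the data, both untreated libraries numbered 1 left out.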

Additional observations from a re-analysis of the deposited data

How the results depend on the processing

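No member reversed its direction with a call in any alternative. At the threshold of 0.05 with no minimum fold, 15 of the 26 members called in WT were called under every other tool, scaling, filter and choice of libraries, and 18 of 25 in OVA, 0 of 2 between untreated lines and 2 of 6 between treated lines. The 0 members called for the difference of responses stayed at 0 throughout.

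With 1 library left out at a time, the cytosolic count ran from 15 to 18 in WT, from 15 to 18 in OVA, from 0 to 2 between untreated lines and from 1 to 5 between treated lines. The mitochondrial count ran from 3 to 9 in WT, from 4 to 10 in OVA, from 0 to 1 between untreated lines and from 1 to 2 between treated lines. A group left with 1 library was assumed to vary like the others.

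In WT the cytosolic count of 18 became 11 with at least 1.2-fold, and the mitochondrial count of 8 became 3 with DESeq2, 4 without both untreated libraries numbered 1, 3 at an adjusted p under 0.01 and 3 with at least 1.2-fold. In OVA the cytosolic count of 17 became 11 with at least 1.2-fold, and the mitochondrial count of 8 became 5, 3, 5 and 3 in the same order. Between untreated lines the cytosolic count of 1 became 2 with DESeq2, upper-quartile factors, the stricter filter and only the groups compared, and 0 without a filter, without both libraries numbered 1, at 0.01 and with at least 1.2-fold. The mitochondrial count of 1 became 0 without both libraries numbered 1 and with at least 1.2-fold. Between treated lines the cytosolic count of 4 became 1 at 0.01 and 0 with at least 1.2-fold, and the mitochondrial count of 2 became 1 with DESeq2 and at 0.01 and 0 with at least 1.2-fold. Stricter thresholds can only lower a count, and the cause of the other shifts was not tested. Lars2 in WT had an edgeR adjusted p of 2.66e-23 without a filter, beside 0.14.

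With the replicate block the cytosolic count was 16 in WT and 17 in OVA and the mitochondrial count 7 and 8. Hars1, Mars1 and Mars2 lost their calls in WT. Same-numbered libraries did not deviate together, with 0 of 13 correlations over 0.1 (-0.0721 to 0.0349, and -0.0709 to 0.106 for other numbers), so the numbers are not taken to pair them. Within groups, counts differed by 2.09 to 3.75 times the sampling variance per gene (chi-square), so no library was counted as a duplicate. With 2 untreated libraries per line, small changes of low genes such as Pars2 and Tars3 could not be resolved.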
